A study of Homo sapiens with 6 samples.

Results

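The 79 mitochondrial ribosomal protein genes described here are the rows of the deposited tables whose symbol begins with MRPL or MRPS followed by digits, out of 27734 gene rows. The 3 such rows on chromosome 13 were left out by the rule. Of the 79, 76 are protein genes, 48 of them MRPL and 28 MRPS. The other 3 are the pseudogene symbols MRPL42P5 and MRPL45P2 and the antisense symbol MRPL23-AS1. All 76 protein genes were above the expression minimum for testing, a mean of 1 FPKM over the libraries, where FPKM is the number of fragments per kilobase of transcript, scaled to the fragment total of the library. The other 3 had at most 96 fragments in a library, and only MRPL45P2 was tested.

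Mitochondrial ribosomal proteins are made from nuclear genes, translated in the cytosol and imported into mitochondria, where they join ribosomal RNAs of mitochondrial origin to form the mitoribosome. Its small subunit decodes messenger RNA, and its large subunit joins amino acids and releases the new chain towards the inner membrane. The mitoribosome makes the few proteins encoded by mitochondrial DNA, which are core subunits of the respiratory chain and of ATP synthase. Genes of the large subunit are named MRPL and those of the small subunit MRPS.

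RNA was sequenced from PC-3, an established human prostate cancer line that grows without the androgen receptor. The resistant cells (PC-3_GDC-R) had been passaged with GDC-0068, or ipatasertib, a drug that blocks the ATP pocket of AKT kinases, and the control cells (PC-3_control) were passaged beside them with DMSO, the solvent. Total RNA was taken at passages 20 to 30, and 3 libraries were made per group. Both groups grew in RPMI medium with serum. Neither the dose nor the presence of drug at harvest is given in the labels, nor whether a group's libraries came from 1 culture or several. The p-values therefore measure only the spread between these libraries, which may be technical.

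The libraries held 35562400 to 44279078 fragments counted to genes, and single members held 392 to 21666 fragments. The 5 epithelial markers KRT8, KRT18, KRT19, EPCAM and CDH1 were all above 1 FPKM in both groups, but 3 of the 5 fell: CDH1, the adhesion protein E-cadherin, from 65.2 ± 1.24 to 34.00 ± 0.988 FPKM (a log2 ratio of -0.96 ± 0.04, SE, a larger change than that of any member), KRT19 (-0.34 ± 0.07) and EPCAM (-0.27 ± 0.07). Their part in the results was not tested. The prostate genes KLK2 and KLK3 were listed at 0 in every library. Of 11 markers of leukocytes, endothelium and fibroblasts, 1 (COL1A1) reached a mean of 1 FPKM, and their sum was 3.14 to 4.34 FPKM in control and 1.85 to 2.34 in resistant libraries, whose part in the results was not tested. Control replicate 1 stood apart from the other libraries by base composition: over 12522 genes its deviation from the control mean went with transcript GC content at a rho (Spearman) of -0.76, against 0.60 and 0.65 in the other control libraries. Counts below are therefore also given without that library and with a GC correction. In bulk RNA, fewer cells of a kind and less RNA per cell cannot be told apart.

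A gene is said to have fallen or risen where its difference passed the quasi-likelihood test of edgeR at an adjusted p (Benjamini-Hochberg, over all 13070 tested genes) under 0.05. A change is the log2 ratio of resistant to control. The SE beside it was derived from that test, as the size of the change over the square root of the F statistic. A mean FPKM carries the SD over the 3 libraries of a group. Levels of single libraries are listed in the order of replicates 1 to 3, control first.

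Most mitochondrial ribosomal protein genes were lower in resistant cells, each by a modest amount. Of the 76 protein genes, 46 fell, 6 rose and 24 did not pass, with a median log2 fold change of -0.26 (a ratio of resistant to control of 0.837). Over all genes tested, 25.7% fell and 24.5% rose, with a median of -0.01, against 60.5% and 7.89% of the members. No member changed by 2-fold: the log2 fold changes ran from -0.73 to 0.27, and their quartiles were -0.37 and -0.05. Without control replicate 1, 51 fell and 8 rose (32.9% and 31.9% of all tested genes), and with a GC correction 59 fell and 6 rose (36.2% and 27.1%). With both, 59 fell and 6 rose (37.2% and 28.6%). With a change of at least 0.2 asked for as well, 43 fell and 2 rose (22.6% and 22.2%). MRPL45P2 did not pass (0.13 ± 0.17; edgeR adjusted p = 0.57).

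The direction was visible in the values of single libraries. In 47 of the 76 genes every resistant library lay below every control library, and in 9 every resistant library lay above, against 28.5% and 31.9% of all tested genes. The members held 0.679%, 0.690% and 0.688% of all gene fragments in the control libraries, and 0.610%, 0.604% and 0.599% in the resistant ones. The groups did not overlap in this share.

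**Figure D1:**
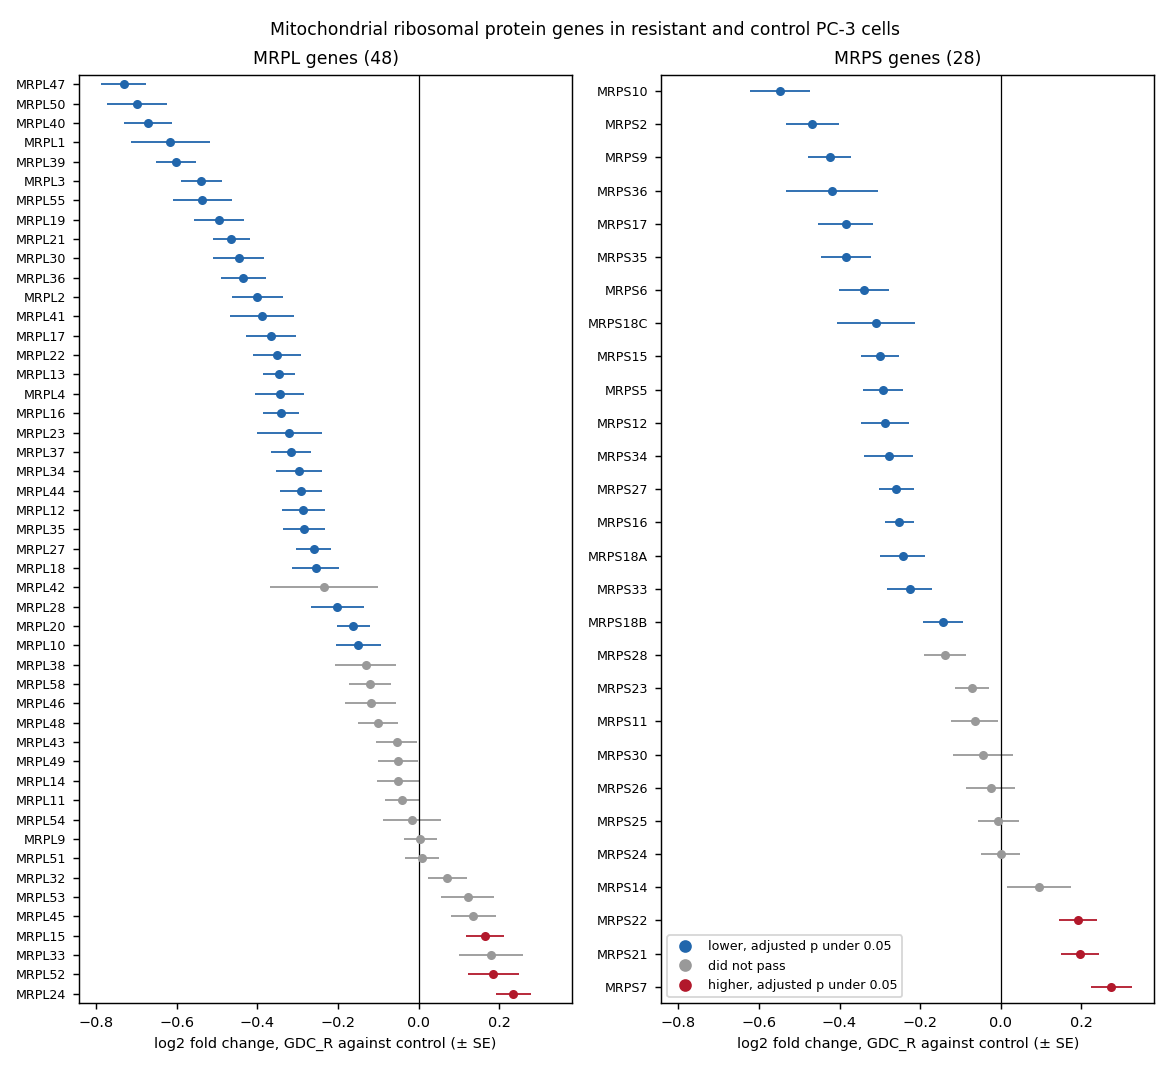
Log2 fold change of each protein gene, GDC_R against control (x axis), for the 48 MRPL genes (left) and the 28 MRPS genes (right). Genes are ordered by change. Points carry bars of ± 1 SE derived from the edgeR test, with 3 libraries per group. Blue points fell and red points rose at an adjusted p under 0.05, and grey points did not pass; 46 are blue and 6 red.

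Both subunits were lower, and the difference between them was not tested. Of the 48 MRPL genes, 29 fell and 3 rose, with a median log2 fold change of -0.27, and of the 28 MRPS genes, 17 fell and 3 rose, with a median of -0.25. The summed level of the MRPL genes was 3332, 3458 and 3465 FPKM in the control libraries and 3044, 3015 and 2968 FPKM in the resistant ones. The summed level of the MRPS genes was 1990, 2000 and 1988 FPKM in control and 1825, 1807 and 1801 FPKM in resistant libraries. Both sums were higher in every control library than in any resistant one. The ratio of the MRPL to the MRPS sum was 1.67, 1.73 and 1.74 in control and 1.67, 1.67 and 1.65 in resistant libraries. At this rounding control replicate 1 could not be told from resistant replicates 1 and 2.

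Symbols do not always name the subunit in which the protein sits. Structures of the mammalian mitoribosome place MRPS18A and MRPS30 in the large subunit, and MRPS36 is known as a subunit of the 2-oxoglutarate dehydrogenase complex rather than of the ribosome. With these moved or left out, 30 of 50 large subunit genes fell and 3 rose, and 15 of 25 small subunit genes fell and 3 rose, with medians of -0.26 and -0.25. MRPS18A fell by 0.24 ± 0.06, while MRPS30 had -0.04 ± 0.08 and did not pass.

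**Figure D2:**
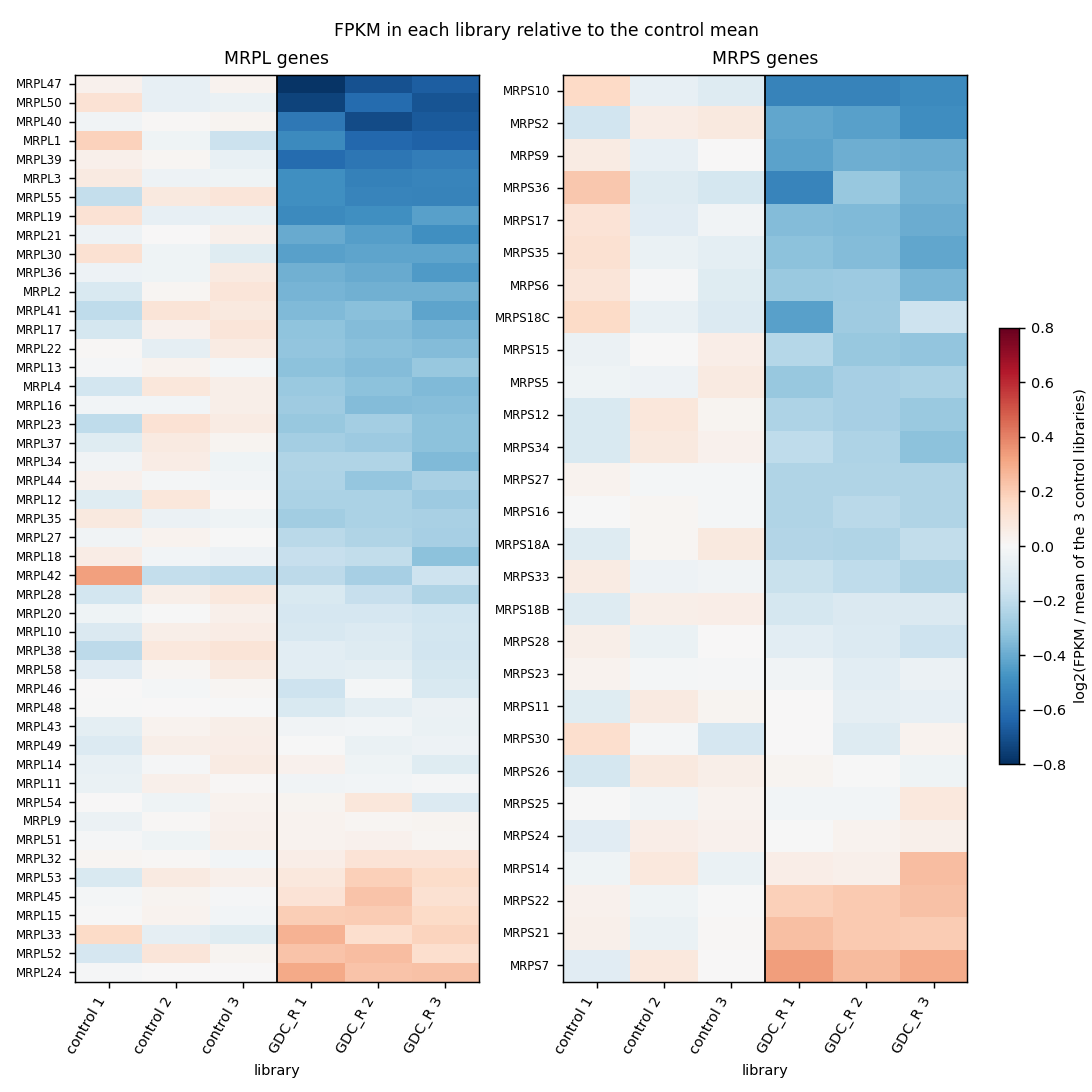
Level of each protein gene in each library, as log2 of its FPKM over the mean of the 3 control libraries (colour scale), with MRPL genes on the left and MRPS genes on the right in the order of their log2 fold change. The 3 resistant libraries share the blue of the genes at the top, and MRPL42 stands out in control replicate 1.

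Promoters of these genes are known for binding sites of NRF1, of ETS factors such as GABP, and of YY1. Their letters were searched on both strands in RefSeq promoters (GRCh38.p14, 250 bases before to 50 after the start), which cover 67 of the 76 members and 9556 of the tested genes by symbol. The ETS letters CCGGAAG were in 28 member promoters (41.8%), against 20% of tested genes and 10.7% of all 27305 promoters. The YY1 letters AAGATGGCG were in 13 (19.4%), against 4.14% of tested genes and 1.85% of all. The palindromic NRF1 motif with 1 free base was in 7 (10.4%), against 12.1% and 6.28%, and with no free base in 1 (1.49%, against 2.35% and 1.36%). The ETS and YY1 letters can share 3 bases, which they did in 0 of the 67. A match is not a bound site.

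The following stretches of 120 bases before the start (GRCh38.p14, 5′ to 3′ along the gene) are shown because they set genes that fell beside genes that rose. Capitals mark CCGGAAG or AAGATGGCG on either strand.
MRPL47 (chr3:179604639-179604758, minus strand): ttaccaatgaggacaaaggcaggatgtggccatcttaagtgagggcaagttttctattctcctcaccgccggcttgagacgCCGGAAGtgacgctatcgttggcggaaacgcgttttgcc
MRPL40 (chr22:19432425-19432544, plus strand): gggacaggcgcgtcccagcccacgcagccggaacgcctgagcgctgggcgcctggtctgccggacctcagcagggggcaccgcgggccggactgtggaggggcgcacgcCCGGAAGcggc
MRPS10 (chr6:42217862-42217981, minus strand): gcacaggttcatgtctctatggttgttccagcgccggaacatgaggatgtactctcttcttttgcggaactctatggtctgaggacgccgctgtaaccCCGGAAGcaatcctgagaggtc
MRPS34 (chr16:1773135-1773254, minus strand): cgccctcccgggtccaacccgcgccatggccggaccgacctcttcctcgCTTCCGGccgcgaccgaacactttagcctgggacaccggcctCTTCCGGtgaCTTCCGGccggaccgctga
MRPS22 (chr3:139343874-139343993, plus strand): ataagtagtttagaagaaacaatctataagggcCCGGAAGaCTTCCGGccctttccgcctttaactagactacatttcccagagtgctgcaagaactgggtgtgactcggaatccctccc
MRPL52 (chr14:22829767-22829886, plus strand): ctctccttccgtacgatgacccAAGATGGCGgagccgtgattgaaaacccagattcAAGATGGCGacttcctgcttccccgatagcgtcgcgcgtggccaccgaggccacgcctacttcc
MRPS7 (chr17:75261759-75261878, plus strand): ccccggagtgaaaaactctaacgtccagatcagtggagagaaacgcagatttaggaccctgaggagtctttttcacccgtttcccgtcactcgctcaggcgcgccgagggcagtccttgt

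The letters stood in front of genes of either direction. MRPL47, MRPL40, MRPS10 and MRPS34 (-0.28 ± 0.06) fell and hold ETS letters, 3 times in MRPS34. MRPS22 rose and holds them as a facing pair, MRPL52 rose and holds the YY1 letters 2 times, and MRPS7 rose with none of the 3 motifs in this stretch. Of the 28 members with ETS letters in the whole window, 15 fell and 3 rose (median -0.18), and of the 39 without, 24 fell and 2 rose (median -0.29). Of the 13 with YY1 letters, 6 fell and 1 rose (median -0.14), and of the 7 with NRF1 letters, 5 fell and none rose (median -0.37). These counts are a description, and the differences between them were not tested.

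Among the large subunit genes that fell most, 3 encode proteins specific to mitochondria and 3 encode counterparts of bacterial ribosomal proteins. MRPL47 (chr3:179306255-179322434, hg19) is the counterpart of bacterial protein L29 beside the exit of the peptide tunnel, and its promoter letters are among those printed above. It had 77.9, 72.97 and 77.8 FPKM in control and 44.3, 47.1 and 48.2 FPKM in resistant libraries. No resistant library came near the control range, and the change was -0.73 ± 0.06 (edgeR adjusted p = 1.76e-05). MRPL50 (chr9:104152249-104160919), a mitochondria-specific protein, had 40.7, 35.9 and 36.3 FPKM in control and 22.5, 24.6 and 23.4 FPKM in resistant libraries. It changed by -0.70 ± 0.07 (adjusted p = 0.000108), and by -0.63 without control replicate 1, its highest library. MRPL40 (chr22:19419425-19423601), a mitochondria-specific protein of the central protuberance, had 20.8, 21.4 and 21.6 FPKM in control and 14.3, 12.9 and 13.3 FPKM in resistant libraries. The control libraries lay close together, and the change was -0.67 ± 0.06 (adjusted p = 3.97e-05; edgeR).

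MRPL1 is the counterpart of the protein that forms the L1 stalk near the site where spent tRNA leaves. Its levels were 24.7, 21.3 and 19.4 FPKM in control and 15.3, 14.1 and 13.9 FPKM in resistant libraries. All resistant libraries were lower, but the control libraries spread widely, and the change of -0.62 ± 0.10 (adjusted p = 0.00104) was -0.51 without control replicate 1. MRPL39, specific to mitochondria, had 109.1, 107.1 and 101.6 FPKM in control and 69.2, 70.96 and 72.2 FPKM in resistant libraries, a change of -0.60 ± 0.05 (adjusted p = 2.56e-05). MRPL3, the counterpart of a protein that reaches towards the peptidyl transferase centre, had 91.8, 85.01 and 85.2 FPKM in control and 62.2, 60.02 and 60.6 FPKM in resistant libraries, a change of -0.54 ± 0.05 (adjusted p = 5.54e-05; edgeR for all). In MRPL39 and MRPL3 the groups were far apart relative to their spread. The MRPL3 gene holds the small nucleolar RNA SNORA58.

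MRPL24, MRPL52 and MRPL15 were the 3 MRPL genes that rose, all by less than any of the decreases just named. MRPL24 (chr1:156707094-156710923), the counterpart of a protein at the tunnel exit, had 115, 115.9 and 116.2 FPKM in control and 142.6, 135.3 and 136.4 FPKM in resistant libraries. It was higher in every resistant library, and its change of 0.24 ± 0.04 (edgeR adjusted p = 0.00205) was 0.14 with a GC correction. MRPL52, specific to mitochondria, had 55.03, 64.6 and 61.4 FPKM in control and 70.6, 71.7 and 66.4 FPKM in resistant libraries, a change of 0.19 ± 0.06 (adjusted p = 0.0383). It did not pass with a GC correction (0.09), without a filter on low genes (0.16), with control replicate 3 left out (0.20), or with resistant replicate 1, 2 or 3 left out (0.18, 0.17 and 0.23). MRPL15, the counterpart of bacterial L15, had 31.05, 31.8 and 30.6 FPKM in control and 35.7, 35.9 and 34.7 FPKM in resistant libraries, a change of 0.16 ± 0.05 (adjusted p = 0.0194; edgeR). It did not pass without a filter on low genes (0.14), or with resistant replicate 1 (0.17) or 2 (0.16) left out.

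The most and the least abundant MRPL genes differed in how they behaved. Levels per length spanned 10.7 to 182.4 FPKM, with MRPL51 highest and MRPL22 lowest. MRPL51, a mitochondria-specific protein, had 179.8, 176.7 and 185.5 FPKM in control and 184.4, 185.1 and 183 FPKM in resistant libraries, and did not pass (0.01 ± 0.04; edgeR adjusted p = 0.892). MRPL22, whose bacterial counterpart lines the peptide tunnel, had 12.01, 11.3 and 12.5 FPKM in control and 9.61, 9.46 and 9.41 FPKM in resistant libraries, and fell by 0.35 ± 0.06 (adjusted p = 0.00136). For MRPL51 the groups overlapped, and for MRPL22 they did not.

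The other MRPL genes that fell ran from MRPL55 (-0.54 ± 0.07) to MRPL10 (-0.15 ± 0.05), whose groups overlapped and which did not pass in 14 of 19 alternatives. Among them, MRPL12, which forms the stalk that recruits translation factors, went from 102.7 ± 6.7 to 85.4 ± 1.34 FPKM (-0.29 ± 0.05). MRPL2, the counterpart of a protein beside the peptidyl transferase centre, went from 34.8 ± 2.66 to 26.7 ± 0.124 FPKM (-0.40 ± 0.06). MRPL36, the counterpart of the small bacterial protein L36, went from 81.7 ± 3.74 to 61.2 ± 1.5 FPKM (-0.43 ± 0.06). The 16 MRPL genes that did not pass lay between MRPL42 (-0.24 ± 0.13) and MRPL33 (0.18 ± 0.08, and a rise at 0.27 without control replicate 1), so that some of their estimates were as large as those of genes that passed, with wider errors. They include MRPL11, the base of the stalk (-0.04 ± 0.04, and a fall at -0.13 with a GC correction), and MRPL32, which is matured by the AFG3L2 protease (0.07 ± 0.05).

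Of the small subunit genes, MRPS10 fell most. MRPS10 (chr6:42174539-42185633, hg19), the counterpart of a protein in the head of the bacterial small subunit, had 51.7, 44.2 and 43.1 FPKM in control and 31.9, 32.1 and 32.5 FPKM in resistant libraries. Its change was -0.55 ± 0.07 (edgeR adjusted p = 0.000445), and -0.45 without control replicate 1, which was the highest library. MRPS2, the counterpart of bacterial S2, had 31.6, 36.6 and 37.1 FPKM in control and 26.4, 25.97 and 24.9 FPKM in resistant libraries, a change of -0.47 ± 0.07 (adjusted p = 0.000534). MRPS9, the counterpart of a head protein whose tail reaches the tRNA, had 52.4, 47.9 and 50.2 FPKM in control and 37.3, 38.3 and 38.05 FPKM in resistant libraries, a change of -0.42 ± 0.05 (adjusted p = 0.000313; edgeR). In these 3 genes every resistant library lay below every control library. MRPS2 and MRPS9 overlap opposite-strand models that also fell, LOC101928525 (-0.57) and UTAT33 (-0.34).

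MRPS36, the dehydrogenase subunit, had 14.7, 11.7 and 11.5 FPKM in control and 8.76, 10.2 and 9.69 FPKM in resistant libraries. Its change of -0.42 ± 0.11 (edgeR adjusted p = 0.0147) was -0.29 without control replicate 1 and, GC-corrected, -0.27, and did not pass without resistant replicate 1 (-0.35). MRPS17, the counterpart of bacterial S17, had 79.1, 68.6 and 71.8 FPKM in control and 57.5, 57.4 and 55.6 FPKM in resistant libraries, a change of -0.38 ± 0.07 (adjusted p = 0.00188; edgeR). MRPS35, specific to mitochondria, had 107.2, 95.4 and 93.6 FPKM in control and 78.7, 77.5 and 74.01 FPKM in resistant libraries, a change of -0.38 ± 0.06 (adjusted p = 0.00123). Control replicate 1 was the highest library in MRPS36, MRPS17 and MRPS35.

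MRPS7, MRPS21 and MRPS22 were the 3 MRPS genes that rose. MRPS7 (chr17:73257749-73262457), the counterpart of a protein that organises the head of the small subunit, had 108.2, 122.4 and 115.4 FPKM in control and 145.4, 137.2 and 141.7 FPKM in resistant libraries, the highest change of all members (0.27 ± 0.05, and 0.18 with a GC correction; edgeR adjusted p = 0.00242). The MRPS7 model overlaps GGA3 and MIF4GD on the opposite strand, which rose by 0.52 and 0.60, and no source says that counting used strand, so that reads of the 3 genes may not be separable. MRPS21, the counterpart of bacterial S21, had 58.6, 54.9 and 57.2 FPKM in control and 67.1, 65.7 and 65.6 FPKM in resistant libraries, a change of 0.20 ± 0.05 (adjusted p = 0.00827), and of 0.12 with a GC correction. MRPS22, a mitochondria-specific protein mutated in an inherited respiratory chain disease, had 60.6, 57.6 and 58.9 FPKM in control and 67.3, 68.3 and 69.4 FPKM in resistant libraries, a change of 0.19 ± 0.05 (adjusted p = 0.0101; edgeR). MRPS21 and MRPS22 overlap no other gene model that was counted, and their groups did not overlap.

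MRPS16, the counterpart of bacterial S16, was the most abundant member at 209.6, 212.2 and 207.2 FPKM in control and 177.7, 180.5 and 177.6 FPKM in resistant libraries. It was lower in all resistant libraries, with a change of -0.25 ± 0.04 (edgeR adjusted p = 0.00057), and its model overlaps DNAJC9-AS1 on the opposite strand (0.17, not passed). MRPS11, the counterpart of bacterial S11, was the least abundant, at 8.38, 9.41 and 9.09 FPKM in control and 8.99, 8.51 and 8.55 FPKM in resistant libraries. Its groups overlapped and it did not pass (-0.06 ± 0.06, adjusted p = 0.385; edgeR), but it fell with a GC correction (-0.15). The other MRPS genes that fell ran from MRPS6 (-0.34 ± 0.06) to MRPS18B (-0.14 ± 0.05), which did not pass in 13 of 19 alternatives. They include MRPS12, the counterpart of a protein of the decoding centre, which overlaps the synthetase gene SARS2 and went from 63.3 ± 4.8 to 52.5 ± 0.895 FPKM (-0.29 ± 0.06), and MRPS5, the counterpart of another protein that guards decoding, which went from 26.9 ± 1.19 to 22.3 ± 0.434 FPKM (-0.29 ± 0.05). The 8 MRPS genes that did not pass lay between MRPS28 (-0.14 ± 0.05) and MRPS14 (0.10 ± 0.08).

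Members were also divided into counterparts of bacterial ribosomal proteins and proteins specific to mitochondria, from textbook knowledge and after the values had been seen. Of 47 members with a bacterial counterpart, 34 fell (72.3%) and 4 rose, with a median log2 fold change of -0.29. Of 27 mitochondria-specific members, 10 fell (37.0%) and 2 rose, with a median of -0.12. In the large subunit by structure 23 of 30 counterparts and 6 of 19 specific proteins fell, and in the small subunit 11 of 17 and 4 of 8. With a GC correction, 39 of the 47 and 18 of the 27 fell (36.2% of all tested genes), with medians of -0.33 and -0.15. The difference between these classes was not tested. The mitochondria-specific members that did not pass include MRPL45, which anchors the ribosome to the inner membrane (0.14 ± 0.06), and MRPL58, a peptide release factor built into the large subunit (-0.12 ± 0.05). Without control replicate 1 MRPL45 rose (0.14) and MRPL58 fell (-0.16), and MRPL58 also fell with a GC correction (-0.21). MRPL55 and MRPS36 were put in neither class.

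Across members, the change showed little relation to length or level. Over the 76 genes Spearman's rho of the log2 fold change was -0.07 with mRNA size, 0.18 with mean FPKM and 0.15 with GC content. The last was -0.03 without control replicate 1. All tested genes had 0.06 with mRNA size, -0.17 with mean FPKM (the opposite sign) and 0.16 with GC content. The genes share the same 6 libraries and are not independent replicates. MRPL42, specific to mitochondria, shows the weight of that library: it had 36.4, 25.4 and 25.2 FPKM in control and 25.1, 24.1 and 25.8 FPKM in resistant libraries, and its change of -0.24 ± 0.13 did not pass and was -0.03 without it. Of the members, 19 overlap another gene model, and among the 57 that do not, 35 fell and 5 rose (median -0.26).

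Other gene lists of mitochondrial translation had medians below 0 as well. Of 5 further mitoribosome proteins with other symbols, 1 fell (20%, against 25.7% of all tested genes). It was CHCHD1 (MRPS37), which went from 234 ± 3.07 to 183.1 ± 2.13 FPKM (change -0.37 ± 0.04, edgeR adjusted p = 9.82e-05). The others, AURKAIP1 (-0.09), GADD45GIP1 (-0.14), PTCD3 (-0.12) and DAP3 (0.03), did not pass. Without control replicate 1 or with a GC correction 4 of the 5 fell, against 32.9% and 36.2% of all tested genes. Of 26 factors that assemble the mitoribosome, 9 fell (34.6%, against 25.7% of all tested genes) and 2 rose (median -0.08). MRM1, a methyltransferase of the large ribosomal RNA, fell by 0.76 ± 0.09. ERAL1, a GTPase that protects the small ribosomal RNA during assembly, fell by 0.46 ± 0.07, and AFG3L2, a subunit of the protease that matures MRPL32, fell by 0.38 ± 0.04. The gene model of AFG3L2 overlaps TUBB6, and that of MRM1 overlaps TBC1D3F, TBC1D3G and TBC1D3H.

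Of 16 mitochondrial translation factors, 8 fell (50%) and none rose (median -0.15). PDF, which removes the formyl group from new peptides, fell from 27.96 ± 0.871 to 18.6 ± 1.00 FPKM (-0.61 ± 0.06; overlapping COG8). GFM1, an elongation factor that moves the ribosome along, fell from 30.6 ± 1.44 to 20.5 ± 0.251 FPKM (-0.60 ± 0.05; overlapping LXN). GUF1, a GTPase related to bacterial LepA, fell by 0.55 ± 0.09. Without control replicate 1, 11 of the 16 fell, against 32.9% of all tested genes. Of 19 mitochondrial aminoacyl-tRNA synthetases and amidotransferase subunits, which charge the tRNAs, 6 fell (31.6%, near the 25.7% of all tested genes) and 1 rose (median -0.15). With control replicate 1 left out, 12 of these 19 fell, against 32.9% of all tested genes. IARS2, for isoleucine, fell by 0.24 ± 0.04, and QRSL1, of the amidotransferase, fell by 0.29 ± 0.08. The adjusted p of these genes lay under the threshold of 0.05 in edgeR's test.

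Genes that copy, transcribe and process mitochondrial DNA and RNA were mostly lower. Of 17, 11 fell (64.7%) and 1, the exonuclease MGME1, rose, with a median of -0.30. TRMT10C, a subunit of mitochondrial RNase P, fell from 39.9 ± 5.54 to 25.02 ± 1.22 FPKM (-0.70 ± 0.10, and -0.57 without control replicate 1). SUPV3L1, an RNA helicase of mitochondria, fell from 56.8 ± 1.38 to 37.4 ± 0.325 FPKM (-0.62 ± 0.04), and SSBP1, which coats single-stranded mitochondrial DNA, from 104.4 ± 1.81 to 72.1 ± 2.73 FPKM (-0.55 ± 0.05). The adjusted p was 0.000541, 9.89e-06 and 3.37e-05 in edgeR's test. Of 9 tested regulators linked to mitochondrial gene expression, 2 rose (22.2%) and 3 fell (33.3%), near the 24.5% and 25.7% of all tested genes. MYC, which activates many genes of ribosome production, had 82.9, 91.4 and 98.1 FPKM in control and 125, 126 and 120.7 FPKM in resistant libraries (0.43 ± 0.06; adjusted p = 0.000467). PPRC1, a coactivator of the PGC-1 family, rose by 0.33 ± 0.06. GABPB1, the partner of the ETS factor GABPA, fell by 0.30 ± 0.07, and its model overlaps GABPB1-AS1. The factors whose motifs were searched had -0.12 (NRF1), -0.05 (GABPA) and -0.11 (YY1) and did not pass. Without control replicate 1, NRF1 fell (-0.17), GABPA rose (0.15) and YY1 was at 0.00, and with a GC correction NRF1 fell (-0.20). PPARGC1A, the best known PGC-1 gene, was listed at 0 in every library.

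Genes of the cytosolic ribosome, which translates all nuclear-encoded proteins, had a median above 0. Of 83 tested genes of cytosolic ribosomal proteins, 42 rose (50.6%) and 5 fell (6.02%), with a median log2 fold change of 0.20. Of 78 nuclear-encoded respiratory chain and ATP synthase subunits, 46 fell (59%) and 3 rose (3.85%), with a median of -0.19. The shares of all tested genes were 24.5% that rose and 25.7% that fell. With a GC correction the counts were 43 and 12 for the cytosolic ribosome and 5 and 60 for the respiratory chain, in the order rose and fell. Of all tested genes, 27.1% then rose and 36.2% fell. Members of all these lists share the same libraries, and the differences between lists were not tested. Many cytosolic ribosomal protein genes have near-identical processed copies, so that single values there are uncertain. RPL13A changed by 0.94 ± 0.10, while RPS27 had 5.78, 6.76 and 7.04 FPKM in control and 18.7, 59.3 and 19.7 FPKM in resistant libraries, with resistant replicate 2 apart. In the respiratory chain, SDHD of complex II fell by 0.65 ± 0.15 (-0.41 without control replicate 1) and UQCRFS1, the Rieske protein of complex III, fell by 0.56 ± 0.05.

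**Figure D3:**
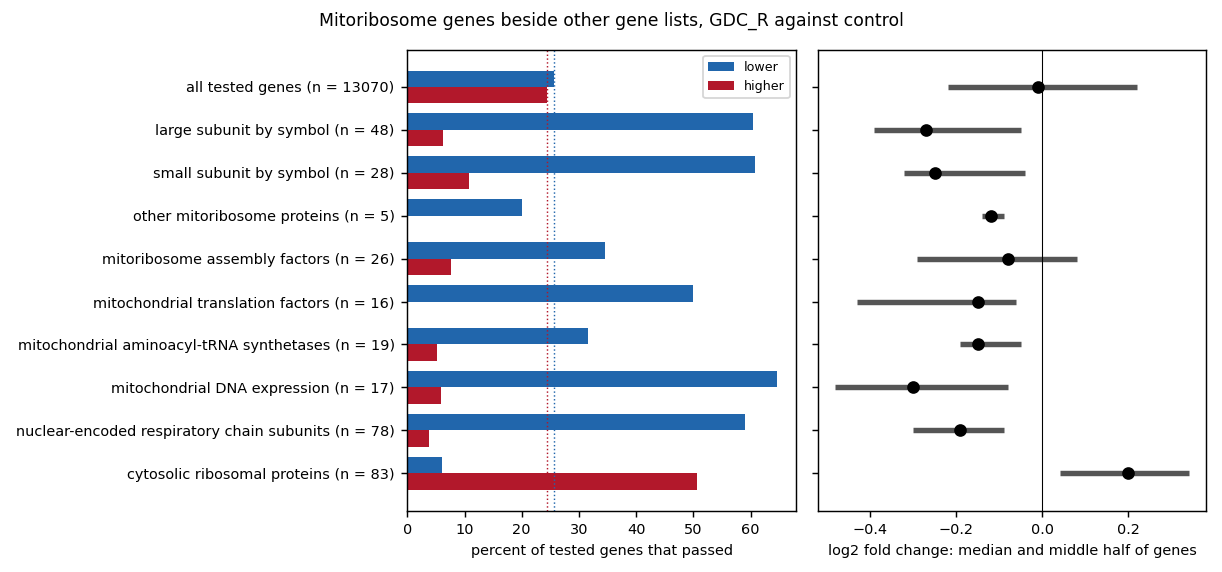
Left, percent of tested genes in each list that fell (blue) or rose (red) in GDC_R against control, with dotted lines at the 25.7% and 24.5% of all tested genes. Right, the median log2 fold change of each list (point) and its quartiles (bar); the mitoribosomal lists lie below 0 and the cytosolic ribosomal proteins, at 0.20, above it.

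Some members begin back to back with another gene, so that both are read outward from a shared stretch of DNA. Of the 76, 22 (28.9%) have a gene on the other strand whose start lies within 1000 bases behind their own, against 15.9% of all tested genes. For 20 of these members the neighbour was tested too: 14 members and 5 neighbours fell, and in 5 pairs both did. The 5 of 20 neighbours that fell are near the 25.7% of all tested genes. MRPL47 begins 140 bases from NDUFB5, a complex I subunit, which fell by 0.53, with 104.6, 91.7 and 88.2 FPKM in control and 64.00, 68.1 and 67.6 FPKM in resistant libraries. MRPL40 begins 205 bases from HIRA, a histone chaperone gene, which fell by 0.64. Both partners also fell in the pairs of MRPS2 with C9orf116 (-0.38), MRPL18 with TCP1, a chaperonin subunit (-0.36), and MRPL27 with EME1, of a DNA repair nuclease (-0.14).

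In 2 pairs the member fell and the neighbour rose, and in 7 the member fell and the neighbour did not pass. MRPL2 (-0.40 ± 0.06) begins 48 bases from KLC4, a kinesin light chain gene, which rose by 0.39, and MRPL37 (-0.32 ± 0.05) begins 93 bases from CYB5RL, which rose by 0.39. MRPL50 lies 216 bases from ZNF189, which had -0.14 and did not pass. MRPL46 and MRPS11, a large and a small subunit gene, begin 50 bases apart, and neither passed (-0.12 ± 0.06 and -0.06 ± 0.06). Over the 20 members with a tested neighbour Spearman's rho between partners was 0.40, against 0.25 over 1573 tested genes with a tested back-to-back neighbour. MRPL46 and MRPS11 are each other's neighbour, so their pair enters from both sides.

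A member's change also went with that of the genes around it. Over the 76 members Spearman's rho between the log2 fold change and the median of the 24 nearest tested genes was 0.51, against 0.28 over 13069 tested genes. Around the 6 members that rose, all 6 window medians were above 0 (0.05 to 0.30, median 0.17). Around the 46 that fell, the window medians ran from -0.29 to 0.19 with a median of -0.02, and 21 were above 0. Around the 24 that did not pass, 20 were above 0, with a median of 0.05. The share of windows above 0 over all tested genes was not computed. A window can hold models that overlap the member, as GGA3 and MIF4GD overlap MRPS7. MRPL19 fell by 0.50 ± 0.06 in a window with a median of 0.19, while MRPL40 lies in the window with the lowest median (-0.29) and MRPS22 in one at 0.30. Gene copy number was not measured, and the part of position in these changes was not tested.

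**Figure D4:**
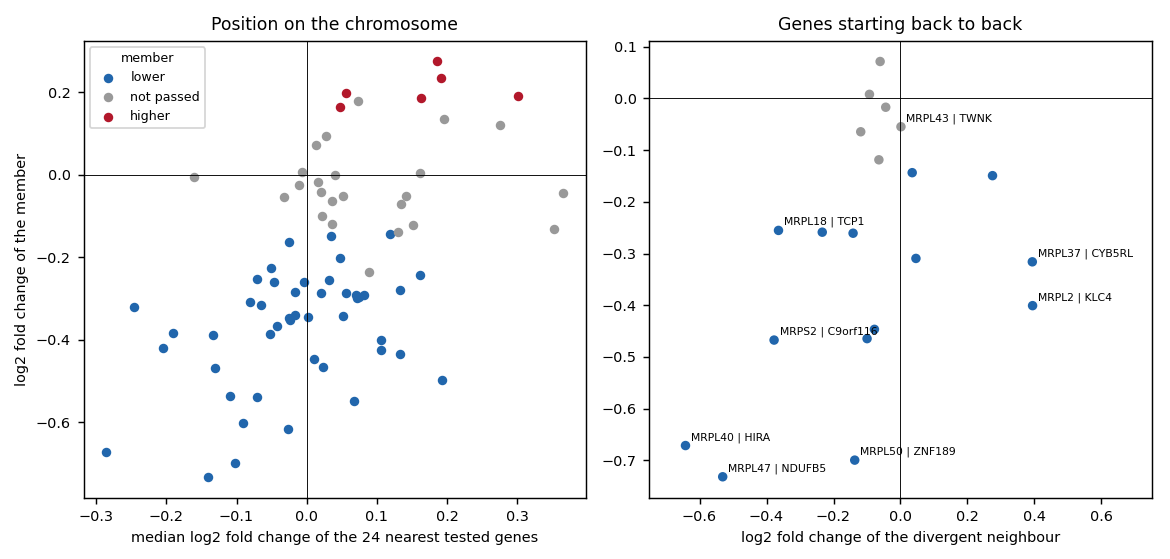
Left, log2 fold change of each of the 76 members (y axis) against the median log2 fold change of its 24 nearest tested genes (x axis). Right, the same for the 20 members with a tested back-to-back neighbour, against that neighbour's log2 fold change; members that fell are blue, those that rose red, others grey, and MRPL47 and MRPL40 lie at the lower left with NDUFB5 and HIRA.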

How the data were processed

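RNA of 6 PC-3 samples was sequenced, 3 per group. The submitters' processing notes name TopHat2 2.0.6 and hg19; how fragments were counted, with which gene models and whether by strand, is not stated there. The deposited counts are whole fragments per gene, not normalized, per the file headers. FPKM, as the authors deposited it, divides that count by mRNA size and by a library total. A deposited score, count over library total alone, was left unused. Rows with a repeated symbol (849) were dropped.

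The members and lists were chosen with earlier results of these data known. Counts of the 13070 genes at or above a mean FPKM of 1 entered the quasi-likelihood test of edgeR 4.0.16 (TMM, group only), adjusted by Benjamini-Hochberg at 0.05. The biological coefficient of variation was 7.17%. Replicate libraries differed by more than sampling noise. The test was checked on simulated data.

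In each subunit the 6 largest decreases and 4 largest increases that passed, and the most and least abundant gene, were named with their values; in other lists, up to 3 passing genes with the largest change and at least 5 FPKM in the higher group. A few genes taken by this rule are left unreported. Other members and the neighbour genes were chosen after their values were seen. GC content came from GENCODE 29 transcripts (95.8% of tested genes), with loess offsets of span 0.3. Back-to-back pairs, overlaps (models up to 2500000 bases) and windows use the files' coordinates. Alternatives used DESeq2 1.42.0 and limma 3.58.1.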

Additional observations from a re-analysis of the deposited data

How the results depend on the processing

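Over 19 alternatives, 39 of the 46 genes that fell and 4 of the 6 that rose kept their call under every one, and none of the 52 changed direction under any. MRPL10, MRPL20, MRPL28, MRPS18B, MRPS18C, MRPS33 and MRPS36 lost theirs under some, as did MRPL15 and MRPL52, and 14 of the 24 that had not passed fell and 2, MRPL33 and MRPL45, rose under some. The members' median log2 fold change was -0.21 with upper-quartile normalization, -0.23 with library totals, with a mean FPKM of at least 5 and with limma-trend at pseudocounts of 1 and 0.5, -0.24 at 0.1, -0.29 without a filter or with the GC correction, and -0.30 with the GC correction and without control replicate 1. The MRPL genes that rose numbered 5 with upper-quartile normalization and 1 without a filter. Asking also for a log2 fold change of at least 0.2 left 2 members that rose, 1 in each subunit, and 43 that fell. MRPL51, which did not pass, had -0.02 without a filter and -0.08 (-0.06 without control replicate 1) with the GC correction. Leaving out 1 library at a time gave 40 to 51 members that fell, 4 to 8 that rose, medians of -0.26 to -0.24, and 1 to 5 MRPL genes that rose (5 without control replicate 1, 1 without resistant replicate 1 or 2); MRPL51 then lay between -0.01 (without control replicate 2) and 0.03. Over all genes the median was -0.009 in the fit used above, 0.033 with upper-quartile normalization and 0.013 with library totals. It was -0.038 with the GC correction and 0.016 over the larger set without a filter. The cause of these shifts was not tested. Over all 13070 tested genes, leaving out 1 library gave 2368 to 4298 that fell and 2544 to 4165 that rose.

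The replicate numbers are shared between groups, but same-numbered libraries did not deviate together (correlations of -0.03, 0.04 and -0.09). With the replicate number as a block 43 members fell and 6 rose, beside 3222 and 3059 of the 13070 tested genes. The members' median was then -0.26, and MRPL15 lost its call (0.16). With the block and the GC correction the median was -0.29, MRPL51 was at -0.08 and MRPL52 at 0.09.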
